A study of Mus musculus with 6 samples.

Results

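The genes described here encode ATP-dependent chromatin remodelers and their subunits: SWI/SNF, ISWI, CHD and INO80-type complexes, and the related ARID proteins. They were taken by symbol from the count table (symbols that start with Smarc, Arid1 to Arid5, Ino80, Baz1 or Baz2, the numbered Chd genes, and Pbrm1, Actl6a, Dpf1, Dpf2, Dpf3, Phf10, Brd7, Brd9, Bptf, Ep400 and Srcap). This gave 50 rows of 14495, with 49 different symbols, because Srcap stands in the table under 2 Ensembl identifiers. All 50 rows passed the filter on low counts; Dpf1 and Chd5 are not analysed here. Ventricular messenger RNA came from untreated male C57BL/6 mice, either 1 day (P1) or 14 days (P14) after birth, and each age had 3 libraries. Each library was made from a pool of 3 hearts, 9 hearts per age, so that differences between single hearts within a pool are not seen. The labels call the tissue left ventricle in one field, while their protocol describes ventricles with the septum from which the atria had been removed.

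Chromatin remodelers use the energy of ATP to slide, eject or exchange nucleosomes, and so open or close DNA to transcription factors and polymerases. Each complex is built around an ATPase of the SNF2 family, and its other subunits, many of which exist as alternative paralogs, set where the complex binds. In the heart, SWI/SNF complexes containing Brg1 (Smarca4) and Baf60c (Smarcd3) are known to act with cardiac transcription factors in development, and Brg1 is known for its part in the switch between fetal and adult myosin heavy chains.

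Total counts were 5916557 to 17353933 per library. Levels are CPM, the reads of a gene scaled to a common library size with TMM factors (trimmed mean of M-values). Levels of different genes are compared only as CPM per kilobase of exon model. Rose and fell are used only of genes called by the quasi-likelihood test of edgeR at an adjusted p below 0.05, fitted over all 14301 tested genes. Because nothing says that pools of one age came from separate litters, p-values measure the spread between these libraries. Cardiomyocyte markers summed to 36760 to 41670 CPM at P1 and 58580 to 64330 CPM at P14, and 5 of 7 rose. All 8 markers of proliferating cells fell, from a sum of 385 to 405 CPM to 27.8 to 48.8 CPM, and all 5 tested macrophage markers rose, from 31.5 to 38.3 CPM to 129 to 135 CPM. Fewer cells of a type and less RNA per cell cannot be told apart in such bulk samples, and the part of these marker changes in the results below was not tested.

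Most remodeler genes (45 of 50 rows) changed by less than 2-fold between P1 and P14, and the exceptions were few. Over all tested genes 10119 of 14301 changed by less than 2-fold. Of the 50 rows 12 rose, 6 fell and 32 did not pass. The called share was 36.0% of the rows, against 43.8% of all tested genes (21.8% rose and 22.0% fell). This lower share depended on the fit: with the replicate number as a block it was 48.0% against 48.9% of all genes, and after correction for GC content and length 30 of the 50 rows were called against 51.3% of all genes. The median log2 fold change over the rows was −0.001, beside −0.01 for all tested genes. Only 5 rows changed at least 2-fold with a call: Smarca1, Arid3b and Actl6a were lower at P14, and Arid4a and Arid4b were higher. Such changes made up 27.7% of all tested genes. In 24 of the 50 rows (48.0%) all libraries of one age lay above all of the other, against 54.8% of all tested genes. With library totals in place of TMM, 1 row rose and 20 fell, while the median of all genes moved to −0.47 and the share of rises among all called genes went from 49.7% to 22.5%. Directions are therefore relative to the TMM scaling; of the 12 rises only that of Arid4a stayed called with totals alone, and all 6 falls did.

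**Figure D1:**
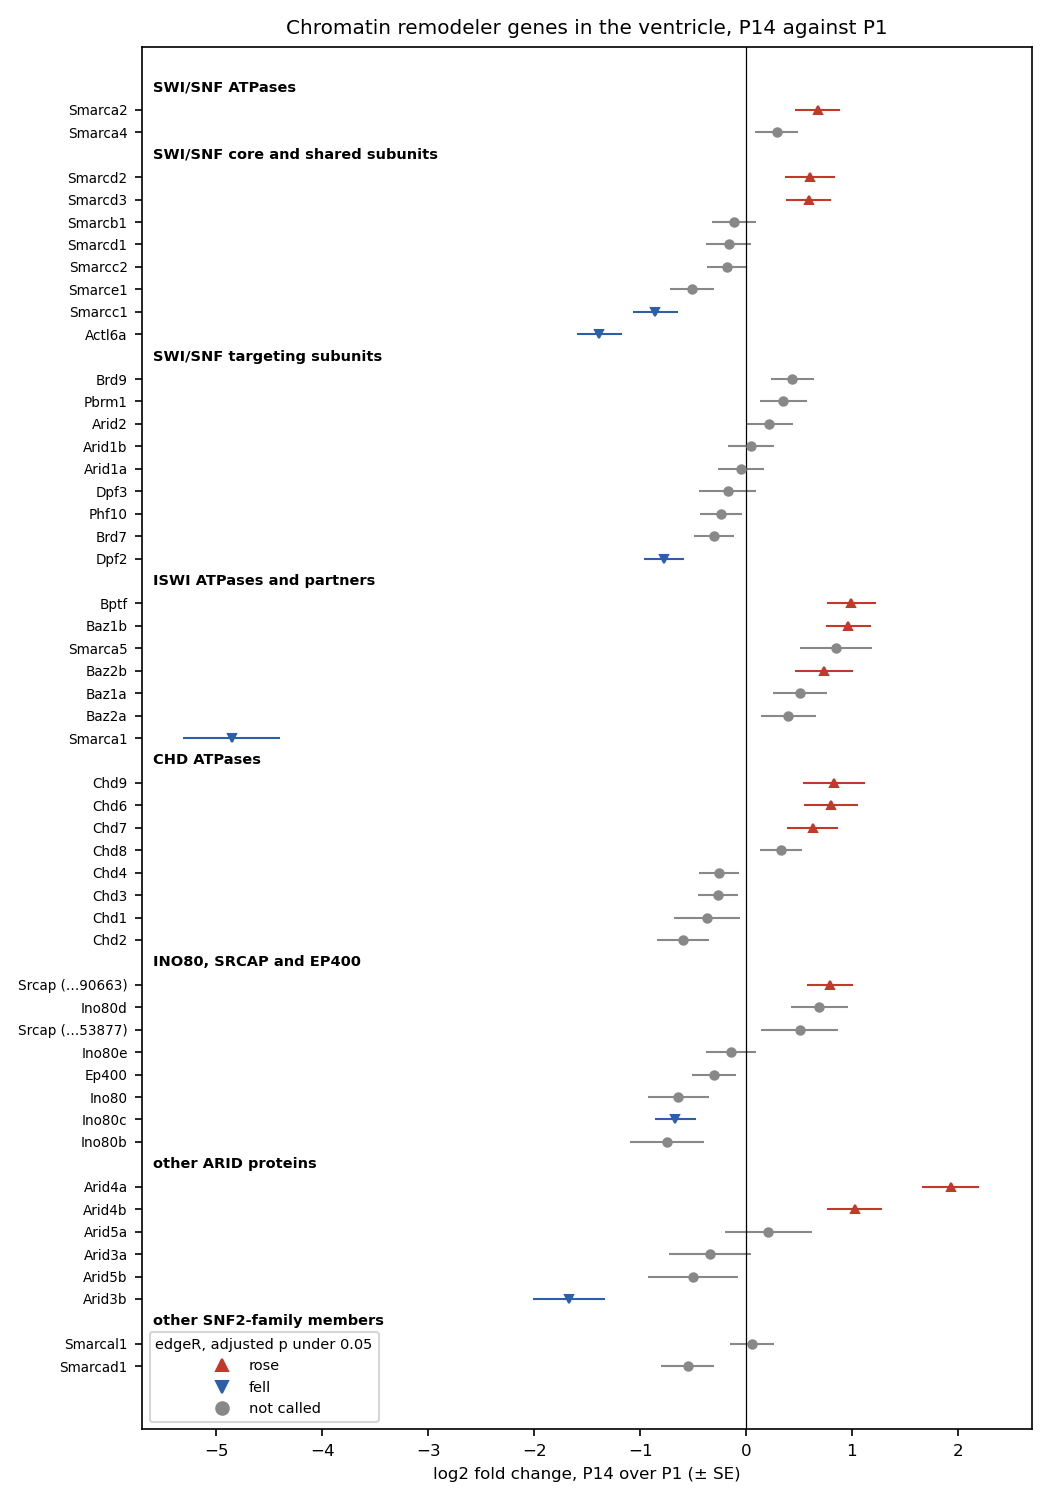
Log2 fold change (P14 over P1) of the 50 remodeler rows, grouped by complex, with bars of 1 standard error (3 libraries per age). Upward triangles are the 12 genes that rose, downward triangles the 6 that fell and circles the 32 that did not pass; Smarca1 stands far to the left of all others at −4.86.

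The largest change was in the ISWI group. Smarca1 encodes Snf2l, 1 of the 2 ISWI ATPases, and lies on the X chromosome (ENSMUSG00000031099; GRCm38 chromosome X, 47809368 to 47892974). Its level was 8.10, 15.2 and 8.76 CPM in P1 replicates 1 to 3 and 0.563, 0.266 and 0.129 CPM in the P14 replicates. These P14 values rest on 8, 2 and 1 reads, against 175, 261 and 52 reads at P1, and every P1 library lay far above every P14 library. The log2 fold change was −4.86 ± 0.46 (SE), a 29.0-fold lower level (edgeR adjusted p = 2.05e-06). By the distance of centred log2 CPM over the 6 libraries, the 5 genes outside the remodelers with the most similar pattern were Bub1 (0.525), Pdk3 (0.726), Pcbd1 (0.752), Sept6 (0.835) and Ect2 (0.859). Smarca5 encodes Snf2h, the other ISWI ATPase (chromosome 8, 80698507 to 80739497). It was counted at 2.13, 3.62 and 1.52 CPM at P1 and 4.15, 4.51 and 5.02 CPM at P14, a higher value in every P14 library that missed the threshold (log2 fold change 0.85 ± 0.34; edgeR adjusted p = 0.0569). With the replicate number as a block it was called (edgeR adjusted p = 0.0239), as it was without P1 replicate 2 (0.00689). Of the 36-base windows of Smarca5, 31.8% also occur in other annotated transcripts, foremost processed pseudogenes of the same gene, so its level is uncertain.

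Of the 5 noncatalytic ISWI partners 3 rose and none fell, where 21.8% of all tested genes rose and 22.0% fell. Bptf, the largest subunit of the NURF complex, which reads methylated histone tails (chromosome 11, 107033081 to 107132127), was at 25.5, 37.8 and 28.1 CPM at P1 and at 45.3, 76.0 and 61.4 CPM at P14. The ages did not overlap, and the log2 fold change was 0.99 ± 0.23 (edgeR adjusted p = 0.00337). Baz1b, also called WSTF, a partner of Snf2h in the WICH complex (chromosome 5, 135187264 to 135246129), went from 41.0, 51.8 and 40.6 CPM to 68.2, 102 and 91.3 CPM, a log2 difference of 0.97 ± 0.21 (edgeR adjusted p = 0.00194). Both calls held without any single library. Baz2b had 18.1 ± 3.66 CPM at P1 and rose to 30.3 ± 10.4 CPM (SD, n = 3), with an edgeR adjusted p = 0.0423. P14 replicate 1, at 18.3 CPM, lay inside the P1 range for Baz2b, and the call ended without P1 replicate 1, P1 replicate 3, P14 replicate 2 or P14 replicate 3 (edgeR adjusted p = 0.0976 to 0.190). Baz1a, the Acf1 subunit, did not pass although its ages did not overlap (5.45 ± 0.502 against 7.85 ± 0.971 CPM). Baz2a, known as Tip5 of the nucleolar remodeling complex, had 28.6 ± 2.81 and 38.0 ± 14.2 CPM, with P14 replicate 1 at 22.6 CPM below all P1 libraries, and was called without that library (edgeR adjusted p = 0.0253).

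Sequence before the RefSeq start sites of the 2 genes with the smallest adjusted p among the falls (Smarca1 and Actl6a, a SWI/SNF subunit described below) and of the 2 ISWI partners with the smallest adjusted p among the rises (Baz1b and Bptf) is shown so that their promoters can be compared. Windows of 250 bases are from RefSeq on GRCm38.p6, cut by 39 bases for Actl6a and 59 for Baz1b where GENCODE M21 places an exon; they are written 5′ to 3′ on the gene's strand. Capitals mark GGGCGG (the GC box) and CCAAT on either strand, so that they read CCGCCC and ATTGG where the motif is on the other strand. The positions are chrX:47892614-47892863 on the minus strand, chr3:32708296-32708506 on the plus strand, chr5:135187073-135187263 on the plus strand and chr11:107132148-107132397 on the minus strand.
Smarca1: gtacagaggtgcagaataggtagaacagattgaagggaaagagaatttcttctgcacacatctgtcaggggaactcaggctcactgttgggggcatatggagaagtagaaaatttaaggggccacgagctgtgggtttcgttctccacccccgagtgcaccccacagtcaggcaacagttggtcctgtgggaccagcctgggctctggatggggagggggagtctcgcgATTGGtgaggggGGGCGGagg
Actl6a: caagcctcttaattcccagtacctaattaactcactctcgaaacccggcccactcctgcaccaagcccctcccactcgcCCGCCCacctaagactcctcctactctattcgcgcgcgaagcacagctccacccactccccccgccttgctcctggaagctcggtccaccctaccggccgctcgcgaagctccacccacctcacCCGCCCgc
Baz1b: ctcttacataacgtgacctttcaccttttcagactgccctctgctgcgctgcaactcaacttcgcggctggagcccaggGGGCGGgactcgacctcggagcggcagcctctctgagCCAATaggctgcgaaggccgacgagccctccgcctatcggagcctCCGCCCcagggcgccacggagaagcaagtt
Bptf: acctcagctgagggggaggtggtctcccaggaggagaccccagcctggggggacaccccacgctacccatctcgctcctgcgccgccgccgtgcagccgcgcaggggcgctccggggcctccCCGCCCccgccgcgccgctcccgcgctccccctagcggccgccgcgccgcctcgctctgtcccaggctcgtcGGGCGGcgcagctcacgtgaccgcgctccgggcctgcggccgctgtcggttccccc
The Smarca1 and Actl6a windows lie inside the gene spans given here, because GENCODE M21 also holds transcripts of both genes that start further upstream. The Smarca1 window held 1 GC box and 1 CCAAT match, with 6 CpG dinucleotides and a GC content of 56.4%. As printed, the Actl6a sequence held 2 GC boxes, that of Baz1b 2 GC boxes and 1 CCAAT match, and that of Bptf 2 GC boxes, with 16, 16 and 34 CpG dinucleotides. The window of Baz2b, the third ISWI partner that rose, differed from these: it held no GC box and 1 CCAAT match, with 4 CpG dinucleotides and a GC content of 41.2%. That window (chromosome 2, 60125741 to 60125990, minus strand) lies far inside the gene span of 59899363 to 60209839. Sequence before the upstream end of Baz2b was not examined. TTTNNCGC, which includes the E2F site, was found in none of the 4 printed windows on either strand. RefSeq windows were found for 38 of the 49 symbols, with 45 start sites; Arid2, Arid3a, Arid4a, Baz1a, Chd1, Chd2, Chd3, Chd7, Ino80c, Ino80d and Smarce1 had no entry. Of the 45 windows 34 held GGGCGG, 14 held CCAAT and 4 held TTTNNCGC, where the shares over all 32851 windows of the same length were 32.7%, 33.8% and 4.28%. GGGCGG was in 7 of the 10 windows of genes that rose and in 4 of the 6 windows of genes that fell. The Srcap window lies at the row that did not pass and is not among them. Not all windows are separate, since the 2 of Brd9 (starts 73937561 and 73937578) overlap. The Chd9 window that starts at 90931999 and the Baz2b window, both among the 10, lie far inside their genes. The median GC content of the 45 windows was 64.8% against 52.4% for all windows. The motifs were chosen after the expression values were known.

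Both SWI/SNF ATPases were well expressed at both ages, and Smarca4 was the more abundant. Smarca4, or Brg1 (chromosome 9, 21616169 to 21704230), was at 96.3, 69.8 and 102 CPM at P1 and 95.8, 119 and 113 CPM at P14. Its ages overlapped, and it did not pass (log2 fold change 0.29 ± 0.20, edgeR adjusted p = 0.271), with a sign that turned to −0.16 with totals alone. Smarca2, or Brm, the alternative ATPase (chromosome 19, 26605050 to 26778322), was at 28.6, 34.9 and 29.8 CPM at P1 and 38.8, 60.8 and 49.8 CPM at P14. Every P14 library was higher, and it rose by a log2 difference of 0.68 ± 0.21 (edgeR adjusted p = 0.0188). The Smarca2 call ended without P1 replicate 1, P1 replicate 3, P14 replicate 2 or P14 replicate 3 (edgeR adjusted p = 0.0556 to 0.125). Per kilobase of exon, Smarca4 had 13.8 ± 2.68 and 16.9 ± 1.85 CPM at the 2 ages, and Smarca2 had 2.18 ± 0.233 and 3.49 ± 0.772.

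Among the 8 core and shared SWI/SNF subunits 2 rose, 2 fell and 4 did not pass, where 43.8% of all tested genes were called. Actl6a, or Baf53a, the actin-related subunit known from proliferating progenitor cells (chromosome 3, 32706298 to 32726973), was at 40.3, 50.5 and 43.8 CPM at P1 and 19.6, 14.1 and 17.6 CPM at P14. Every P1 library lay well above every P14 library, and the log2 fold change was −1.39 ± 0.21 (edgeR adjusted p = 1.31e-04). Of its 36-base windows 11.2% are shared, with the overlapping opposite-strand gene Mrpl47, which did not pass (36.7 and 41.5 CPM), and with the pseudogene Gm13607. Smarcc1, or Baf155, a scaffold subunit (chromosome 9, 110117708 to 110240178), was at 40.4, 47.8 and 35.2 CPM at P1 and 19.1, 26.2 and 23.2 CPM at P14. It fell without overlap (log2 fold change −0.86 ± 0.21, edgeR adjusted p = 0.00468), while its paralog Smarcc2, or Baf170, had 63.7 ± 2.39 and 56.3 ± 7.56 CPM and did not pass.

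Of the 3 Baf60 paralogs, Smarcd1 did not pass (35.7 ± 7.32 and 31.8 ± 2.71 CPM) and the other two rose. Smarcd3, or Baf60c, the heart and muscle form (chromosome 5, 24590818 to 24624411), was at 88.5, 58.9 and 61.5 CPM at P1 and 120, 103 and 92.0 CPM at P14, with no overlap and a log2 difference of 0.59 ± 0.21 (edgeR adjusted p = 0.0343). Exons of Smarcd3 overlap Chpf2 on the opposite strand, 45.3% of its 36-base windows are shared, and Chpf2 itself rose from 43.6 to 79.0 CPM. Whether the counting used strand is unknown here, so reads of the 2 genes may be mixed, and the part of Chpf2 in the Smarcd3 value was not tested. The Smarcd3 call ended when P1 replicate 3 or either of P14 replicates 1 and 2 was left out (edgeR adjusted p = 0.0873 to 0.111), and after correction for GC content and length its log2 fold change was 0.03. Smarcd2, or Baf60b, went from 24.6, 14.98 and 20.4 CPM to 35.0, 25.5 and 30.4 CPM (log2 fold change 0.60 ± 0.23, edgeR adjusted p = 0.0481). The ages of Smarcd2 lay close together, and its call ended without any 1 of 5 libraries, all but P1 replicate 1 (edgeR adjusted p = 0.0601 to 0.152). Smarcb1, or Snf5, had 59.9 ± 9.20 and 55.3 ± 10.6 CPM and did not pass. Smarce1, or Baf57, had 33.8 ± 4.23 and 23.7 ± 3.02 CPM without overlap. It did not pass (edgeR adjusted p = 0.0561), and was called lower with the replicate block (0.0452) and without P14 replicate 1 (0.0444). Of its 36-base windows 15.9% are shared, foremost with processed pseudogenes, so its level is uncertain.

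Few of the subunits that distinguish the SWI/SNF subtypes changed. Of 9 such genes 1 fell and 8 did not pass, a called share of 11.1% beside the 43.8% of all genes. After correction for GC content and length 3 rose (Arid2, Brd9 and Pbrm1) and 2 fell (Dpf2 and Arid1a), where 51.3% of all tested genes were called. The one fall was Dpf2, or Baf45d, a double PHD finger subunit of canonical BAF (chromosome 19, 5896516 to 5913010), at 57.1, 49.0 and 54.6 CPM at P1 and 33.1, 27.4 and 33.5 CPM at P14 (log2 fold change −0.77 ± 0.19, edgeR adjusted p = 0.0048). All 3 P1 libraries of Dpf2 lay well above all P14 libraries. Dpf3, or Baf45c, a paralog studied in heart and muscle, was low at both ages and did not pass, at 5.82 ± 1.06 and 5.22 ± 0.0524 CPM. The BAF-defining ARID subunits had log2 fold changes near zero: −0.05 ± 0.22 for Arid1a (53.6 and 51.8 CPM) and 0.05 ± 0.22 for Arid1b (26.6 and 27.6 CPM). The GC and length correction moved these to −0.46 for Arid1a, which was then called lower (edgeR adjusted p = 0.0223), and −0.37 for Arid1b, which was not (0.0621). For the PBAF subunits the log2 fold changes were 0.22 for Arid2, 0.35 for Pbrm1 (polybromo), −0.24 for Phf10 and −0.30 for Brd7. Pbrm1 was called higher without P1 replicate 2 (edgeR adjusted p = 0.0493). Brd9, the bromodomain subunit of noncanonical BAF, had 44.8 ± 3.57 and 60.8 ± 12.9 CPM without overlap and an edgeR adjusted p = 0.0952, and was called higher without P1 replicate 2 (0.0408). These 8 results do not show that levels were equal, since the standard errors were 0.19 to 0.27 on the log2 scale.

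**Figure D2:**
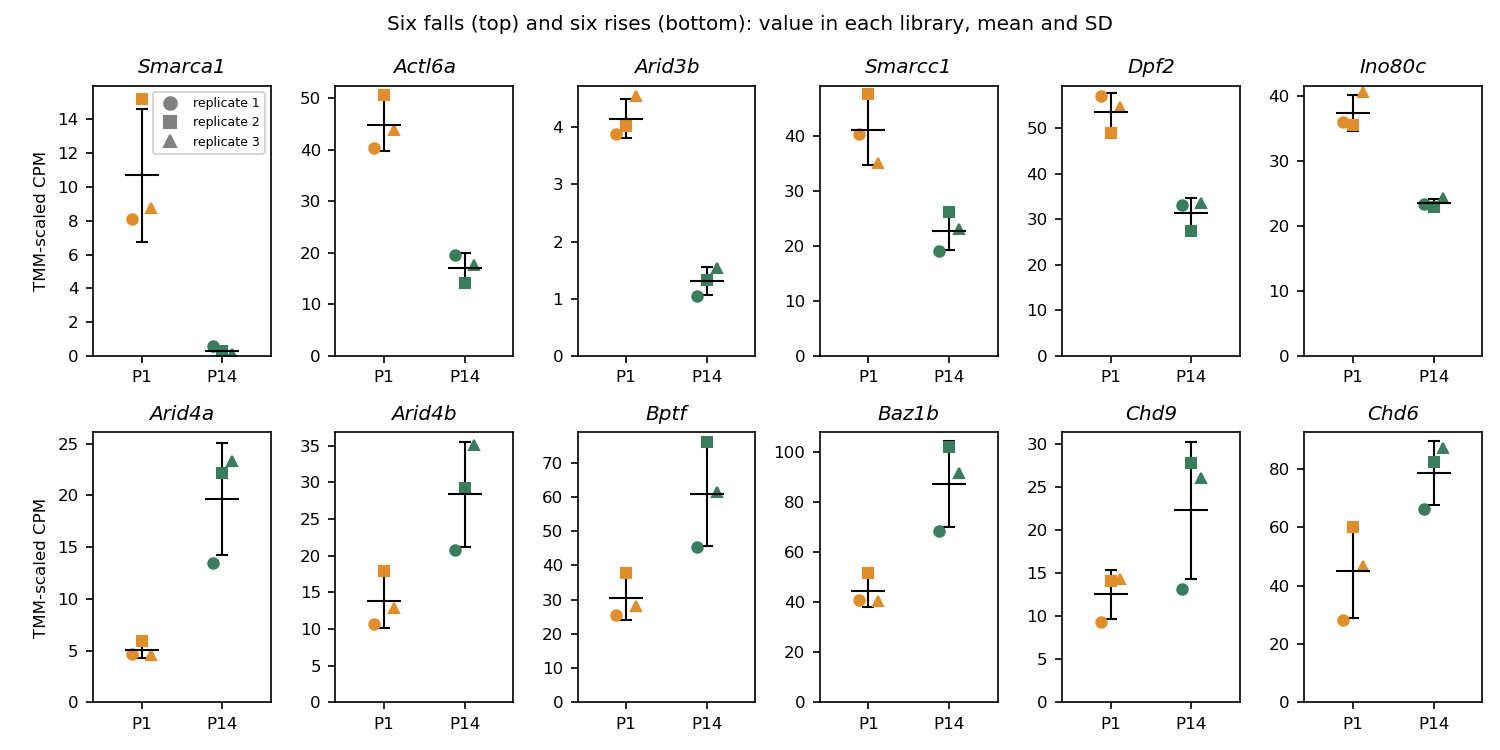
TMM-scaled CPM of the 6 genes that fell (top) and the 6 largest rises (bottom) in each library, with circles, squares and triangles for replicates 1, 2 and 3, a dash for the mean and bars of 1 SD; each vertical axis starts at zero. The ages do not overlap except in Chd9, where P14 replicate 1 (13.2 CPM) lies among the P1 libraries, and P14 replicate 1 is the lowest P14 library in all 6 rises.

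Of the 8 CHD ATPases, 3 of the 4 large members of the third subfamily (Chd6 to Chd9) rose. None of Chd1 to Chd4 passed. Over all tested genes 21.8% rose and 22.0% fell. The difference between the subfamilies was not tested. Chd6 (chromosome 2, 160946978 to 161109075) was at 28.3, 60.2 and 46.8 CPM at P1 and 66.4, 82.5 and 87.1 CPM at P14, a log2 difference of 0.80 ± 0.25 (edgeR adjusted p = 0.019). Chd9 (chromosome 8, 90828352 to 91054516) was at 9.30, 14.1 and 14.3 CPM at P1 and 13.2, 27.8 and 26.0 CPM at P14, a log2 difference of 0.83 ± 0.29 (edgeR adjusted p = 0.0331). P14 replicate 1 fell inside the P1 range in Chd9, and the lowest P1 library was replicate 1 in both genes. Chd7, the gene mutated in CHARGE syndrome, which includes heart defects, had 16.2 ± 1.73 CPM at P1 and rose to 25.1 ± 6.91 CPM with an edgeR adjusted p = 0.047, and P14 replicate 1, at 17.7 CPM, again lay among the P1 libraries. All 3 calls ended when P1 replicate 1 or either of P14 replicates 2 and 3 was left out, and those of Chd7 and Chd9 also without P1 replicate 3 (edgeR adjusted p = 0.0652 to 0.0766 for Chd6, 0.0627 to 0.244 for Chd7 and 0.0536 to 0.155 for Chd9). The call of Chd7 also ended after correction for GC content and length (0.0988). Chd8 had 46.2 ± 7.66 and 58.2 ± 7.04 CPM and did not pass, but was called higher without P1 replicate 2 (edgeR adjusted p = 0.0349).

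The NuRD ATPase Chd4, or Mi-2β, had the highest level per kilobase of all 49 rows with an exon length at P1, and it was at 169, 158 and 157 CPM at P1 and 117, 140 and 148 CPM at P14. These values did not overlap but lay close together, and Chd4 did not pass (log2 fold change −0.26 ± 0.19, edgeR adjusted p = 0.285). Its paralog Chd3 had a log2 fold change of −0.27 ± 0.19. After correction for GC content and length both were called lower, Chd4 at −0.38 and Chd3 at −0.70 (edgeR adjusted p = 0.037 and 0.00242). Chd1, which binds methylated histone H3 at active genes, had 13.5 ± 4.90 and 10.7 ± 3.64 CPM and overlapping ages. Chd2 had 50.8 ± 6.55 and 33.8 ± 10.95 CPM and an edgeR adjusted p = 0.0628, and was called lower with the replicate block (0.00973). Of the 36-base windows of Chd2, 18.5% are shared, mostly with 1810026B05Rik on the same strand.

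Among the INO80, SRCAP and EP400 genes, which slide nucleosomes or exchange the histone variant H2A.Z, 1 of 8 rows rose, 1 fell and 6 did not pass. The called share of all tested genes was 43.8%. Ino80c, a small INO80 subunit (chromosome 18, 24104757 to 24121953), was at 35.9, 35.5 and 40.6 CPM at P1 and 23.3, 22.8 and 24.2 CPM at P14. The groups were tight and apart, at a log2 difference of −0.67 ± 0.19 (edgeR adjusted p = 0.0117), yet the call ended without P1 replicate 3 or P14 replicate 2 (0.05569 and 0.05605). The ATPase Ino80 had 14.3 ± 3.60 and 9.28 ± 2.74 CPM and Ino80b had 9.60 ± 3.96 and 5.62 ± 1.67 CPM, with edgeR adjusted p = 0.0835 and 0.1. With the replicate block both were called lower (edgeR adjusted p = 0.0253 and 0.0234). After correction for GC content and length Ino80b was at −1.37 on the log2 scale in place of −0.75, and called (edgeR adjusted p = 1.998e-04). Ino80 was also called lower without P1 replicate 1 (edgeR adjusted p = 0.0343), and Ino80b without P1 replicate 2 (0.00379). Ino80d had 14.98 ± 3.33 and 24.1 ± 7.34 CPM and an edgeR adjusted p = 0.0507, just outside the threshold; it was called higher with the replicate block (0.0115), with DESeq2, and without P1 replicate 2 (0.0134) or P14 replicate 1 (0.0366). Ino80e and Ep400 did not pass, with log2 fold changes of −0.14 ± 0.24 and −0.30 ± 0.21.

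Srcap, the ATPase that deposits H2A.Z, has 2 rows. The row ENSMUSG00000090663, which is not in GENCODE M21, rose from 19.2, 17.96 and 24.1 CPM to 28.9, 38.9 and 38.1 CPM without overlap (log2 fold change 0.80 ± 0.22, edgeR adjusted p = 0.00829). The row ENSMUSG00000053877 had 6.34, 7.75 and 12.8 CPM at P1 and 6.26, 15.3 and 16.1 CPM at P14 and did not pass (log2 fold change 0.51 ± 0.36, edgeR adjusted p = 0.283), but was called higher without P14 replicate 1 (0.04845). Of the 36-base windows of the second row 63.8% are shared, foremost with the overlapping same-strand gene Gm42715, so how reads were divided between overlapping Srcap models is uncertain.

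The other ARID proteins, which bind DNA through the same domain but are not SWI/SNF subunits, held 3 of the 5 called changes of at least 2-fold. Arid4a, a retinoblastoma-binding protein found in Sin3 deacetylase complexes (chromosome 12, 71015990 to 71098592), had the largest rise of the remodeler rows, from 4.72, 5.95 and 4.55 CPM to 13.4, 22.2 and 23.3 CPM. The ages were far apart, with a log2 fold change of 1.93 ± 0.27, or 3.81-fold (edgeR adjusted p = 6.75e-05). Its paralog Arid4b, a member of the same complexes (chromosome 13, 14063232 to 14199603), was at 10.7, 17.9 and 12.8 CPM at P1 and 20.8, 29.2 and 35.0 CPM at P14 (log2 fold change 1.03 ± 0.26, edgeR adjusted p = 0.00547). Its highest P1 library lay just under its lowest P14 library. Arid3b, a DNA-binding factor (chromosome 9, 57790353 to 57836793), fell from 3.89, 4.02 and 4.55 CPM to 1.06, 1.33 and 1.55 CPM, a log2 difference of −1.67 ± 0.34 (edgeR adjusted p = 0.00129). Its paralog Arid3a had 1.74 ± 0.311 and 1.40 ± 0.374 CPM and did not pass. Arid5a and Arid5b did not pass and varied widely within an age: Arid5a was at 16.8, 5.60 and 5.73 CPM at P1, and Arid5b was at 2.96, 9.29 and 11.8 CPM at P14. Without P1 replicate 1, the high library, Arid5a was called higher (edgeR adjusted p = 0.0195).

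The remaining SNF2-family members, the ATPase Smarcad1 and the annealing helicase Smarcal1, did not pass. Smarcad1, which acts after DNA replication and at breaks, was at 8.70, 13.5 and 10.8 CPM at P1 and 7.11, 7.83 and 7.60 CPM at P14, without overlap (edgeR adjusted p = 0.091). Smarcal1, which acts at stalled replication forks, had 24.6 ± 1.90 and 25.4 ± 3.69 CPM.

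Paralog switches were examined as the ratio of 2 paralogs per kilobase within a library, which does not depend on how libraries are scaled. Of 21 pairs listed, 19 had both genes in the table. In 9 pairs the 3 P1 ratios did not overlap the 3 P14 ratios, 6 of them higher and 3 lower at P14. Single genes did not overlap in 54.8% of all tested genes. That is an unlike measure, and no such share is given here for ratios of 2 genes. With 3 libraries against 3 an exact two-sided permutation test cannot go below p = 0.1, which these 9 pairs reached, and over the 19 pairs the smallest adjusted p was 0.211, so no pair passed. The order of the ISWI ATPases was reversed by this measure: reads per kilobase of Smarca1 were 4.80, 5.32 and 7.02 times those of Smarca5 at P1 and 0.182, 0.0921 and 0.0483 times at P14. The log2 ratio went from 2.50 ± 0.285 to −3.42 ± 0.956 (SD, n = 3), a 60.5-fold change, with both limits given above for these genes (few Smarca1 reads at P14 and shared Smarca5 windows); with 5 counts added in place of 0.5 the log2 change was −4.5. The Arid3 pair also crossed 1, with Arid3b over Arid3a at 1.66, 1.33 and 2.02 at P1 and 0.554, 0.861 and 0.601 at P14. These P14 ratios rest on few reads, 15, 10 and 12 of Arid3b and 19, 8 and 14 of Arid3a. In P14 replicate 2 Arid3b had more reads than Arid3a. That ratio is below 1 only after division by the exon models, 7976 bases for Arid3b and 5562 for Arid3a.

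Within SWI/SNF the shifts were smaller. Smarcd3 over Smarcd1 was at 1.70, 1.70 and 1.24 at P1 and 2.71, 2.61 and 2.45 at P14, and Smarcd2 over Smarcd1 was at 0.676, 0.617 and 0.589 at P1 and 1.13, 0.921 and 1.16 at P14. Both ratios over Smarcd1 (Baf60a) were higher at P14, by 0.76 on the log2 scale, but like all pairs they did not pass. The limit given above for Smarcd3, whose exons overlap Chpf2, holds for its ratio too. For Smarcd1, 8.91% of the 36-base windows are shared, with Gm17349 and Gm34939 on the opposite strand. Smarcc2 over Smarcc1 went from 2.26, 1.80 and 2.62 to 3.54, 3.11 and 3.83, Dpf3 over Dpf2 from 0.190, 0.169 and 0.145 to 0.244, 0.294 and 0.245, and Brd9 over Brd7 from 0.378, 0.364 and 0.367 to 0.454, 0.785 and 0.639. In all 3 pairs the same paralog remained the more abundant per kilobase at both ages. For Brd9 and Brd7 this order rests in P14 replicate 2 on the exon models, 6949 and 5244 bases. Before division by length Brd9 had more reads in that library, 568 against 546. After correction for GC content and length the change of Smarcc2 over Smarcc1 was 0.25 in place of 0.66, and that of Smarcd3 over Smarcd1 0.44 in place of 0.76. The ATPase pair did not separate by age: Smarca2 over Smarca4 was at 0.135, 0.227 and 0.132 at P1 and 0.184, 0.232 and 0.200 at P14 (change 0.36 on the log2 scale, and 0.76 after the GC and length correction; exact permutation p = 0.3). Arid1b over Arid1a was at 0.459, 0.495 and 0.412 at P1 and 0.505, 0.495 and 0.464 at P14.

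In the other families Baz1b over Baz1a went from 3.79, 4.63 and 4.29 to 5.21, 6.65 and 5.43, a change of 0.44 on the log2 scale that was 0.28 after the GC and length correction. Arid4b over Arid4a went from 0.751, 0.993 and 0.921 to 0.511, 0.436 and 0.497. Per kilobase Arid4a was thus the higher of the pair in every library, though hardly so in P1 replicate 2. That order rests on the exon models, 16965 bases for Arid4b and 5615 for Arid4a. Before division by length Arid4b had more reads in every library. Chd3 over Chd4 was at 0.233 to 0.264 in the P1 libraries and 0.239 to 0.255 in the P14 libraries, a log2 change of −0.003 that was −0.29 after the GC and length correction. Chd6 over Chd9 (3.69 to 5.18 and 3.60 to 6.11), Chd7 over Chd8 (0.338 to 0.513 and 0.422 to 0.588), Chd2 over Chd1, Baz2b over Baz2a, Dpf3 over Phf10, Arid5b over Arid5a and Srcap over Ep400 overlapped between the ages. The Srcap ratio used only the Srcap row that did not pass. The Srcap row that rose had more reads but no exon length, so the ratio does not cover it.

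**Figure D3:**
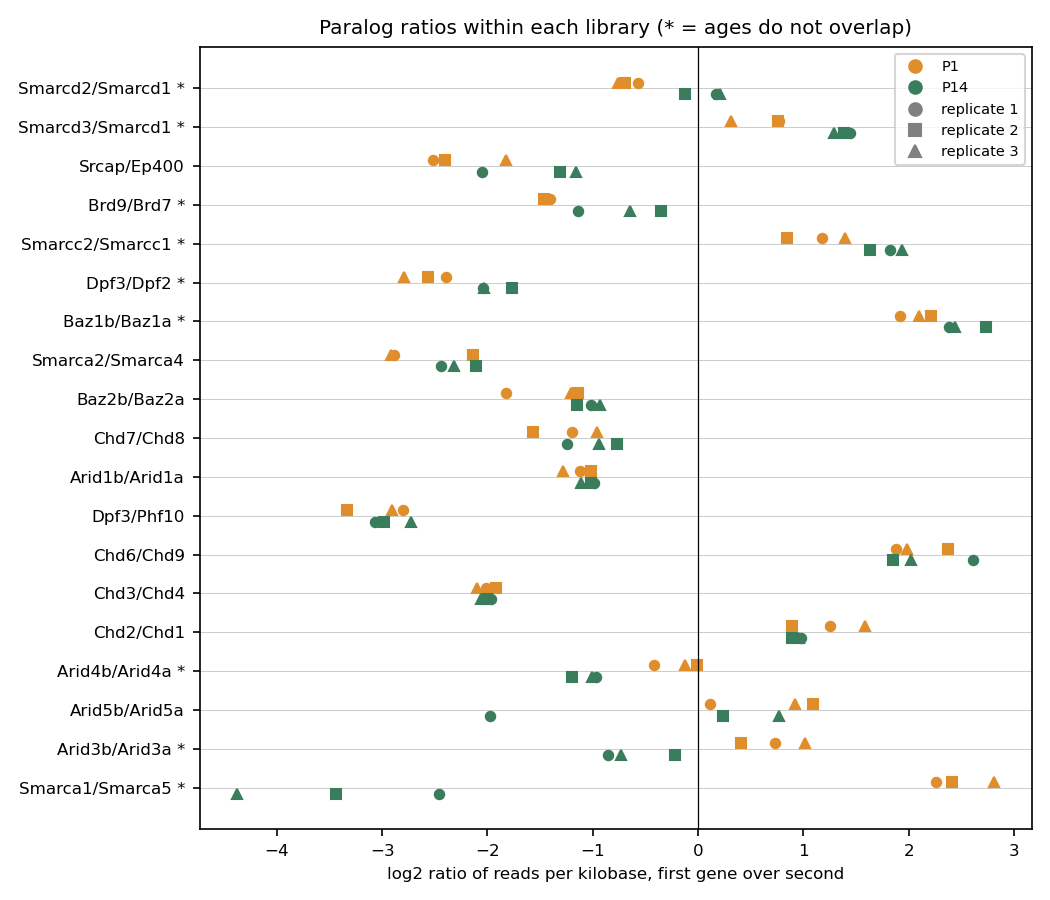
Log2 ratio of reads per kilobase of exon for 19 paralog pairs in each library (P1 orange, P14 green, with circles, squares and triangles for replicates 1, 2 and 3), sorted by the change from P1 to P14. An asterisk marks the 9 pairs whose ages do not overlap; Smarca1 over Smarca5, at the bottom, moves from above 2 to below −2.

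Genes of the same complexes that the symbols above do not take were described from a list of 63 partner subunits and other SNF2 ATPases, of which 57 were tested: 2 rose, 14 fell and 41 did not pass, with a median log2 fold change of −0.19. Of all tested genes 21.8% rose and 22.0% fell. NuRD subunits, which join Chd3 or Chd4 to histone deacetylases, held 6 of the falls and no rise among 12 tested genes. Rbbp4, a histone-binding subunit, was at 173, 214 and 183 CPM at P1 and 111, 86.0 and 79.2 CPM at P14. The deacetylase Hdac2 fell from 67.5 ± 20.3 to 34.2 ± 8.70 CPM and Mta3 from 22.6 ± 1.80 to 11.7 ± 2.05 CPM. Of 23 tested INO80, SRCAP and TIP60 partners 1 rose and 4 fell. Znhit1, an SRCAP subunit, rose from 38.3 ± 15.9 to 77.4 ± 6.83 CPM, with P1 replicate 2 lowest at 20.2 CPM. Epc2 fell from 25.6 ± 5.83 to 13.2 ± 2.41 CPM, Brd8 from 38.2 ± 9.69 to 22.4 ± 2.73 CPM and Yeats4 from 30.4 ± 6.28 to 18.9 ± 5.87 CPM, all 3 being TIP60 subunits. The call of Brd8 ended without P14 replicate 1 (edgeR adjusted p = 0.0583), and that of Yeats4 when P1 replicate 2 or either of P14 replicates 2 and 3 was left out (0.0854, 0.184 and 0.138).

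Of 7 tested SWI/SNF partners the one call was the fall of Bcl11a, a zinc finger protein, from 12.6 ± 1.22 to 2.69 ± 0.560 CPM, and of 4 tested ISWI partners the one call was the rise of Cecr2, a partner of the ISWI ATPases, from 2.95 ± 0.808 to 11.2 ± 2.21 CPM (both named after their values were seen, as are Hells and Rad54b). Among 11 other SNF2-family ATPases 3 fell: Ttf2, a transcription termination factor, from 15.7 ± 2.50 to 4.73 ± 0.506 CPM, Hells, which acts in DNA methylation, from 4.34 ± 2.99 to 0.383 ± 0.118 CPM, and Rad54b, a recombination factor, from 3.35 ± 0.858 to 0.195 ± 0.279 CPM. Hells and Rad54b were below 1 CPM in every P14 library. With the replicate block further partner genes were called lower: Ss18 of SWI/SNF, Pole3 of the ISWI partners and the ATPase Rad54l2 (edgeR adjusted p = 0.04713, 0.04429 and 0.04335).

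Rising remodeler genes were mostly those with long exon models, which join all annotated exons of a gene and are not transcript lengths. The median exon model was 14081 bases for the 11 rising rows with a length and 6309.5 bases for the 6 that fell. It was 7974.5 bases for the 32 rows that did not pass and 7976 bases for all rows with a length. Over all tested genes it was 4167.5 bases, and 3833 bases for those that rose. Of the 20 rows with over 10000 bases 8 rose and none fell, while of the 29 shorter ones 3 rose and 6 fell. Over all tested genes with over 10000 bases 20.8% rose and 17.6% fell. P14 replicate 1 was the lowest P14 library in 10 of the 12 rising rows, and in 21 of the 32 that did not pass. It was lowest in 36.9% of all rising genes and in 33.9% of all tested genes. P1 replicate 1 was the lowest P1 library in 7 of the 12 rising rows and in 10 of the 32 that did not pass. The shares for P1 replicate 1 were 27.2% of all rising genes and 31.8% of all tested genes. After each library was corrected for GC content and length, 10 of the 12 rises and all 6 falls remained called, and in all 16 rows rose and 14 fell, while 51.3% of all tested genes were called; the rises of Chd7 and Smarcd3 ended. The added rises were Arid2, Baz1a, Brd9, Ino80d, Pbrm1 and Smarca5, and the added falls Arid1a, Chd2, Chd3, Chd4, Ep400, Ino80b, Smarcc2 and Smarcd1. That correction also takes up any change with age that follows GC content or length. The parts of length and of P14 replicate 1 in the rises therefore cannot be told apart from age by it. The cut at 10000 bases was chosen after the values were seen.

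**Figure D4:**
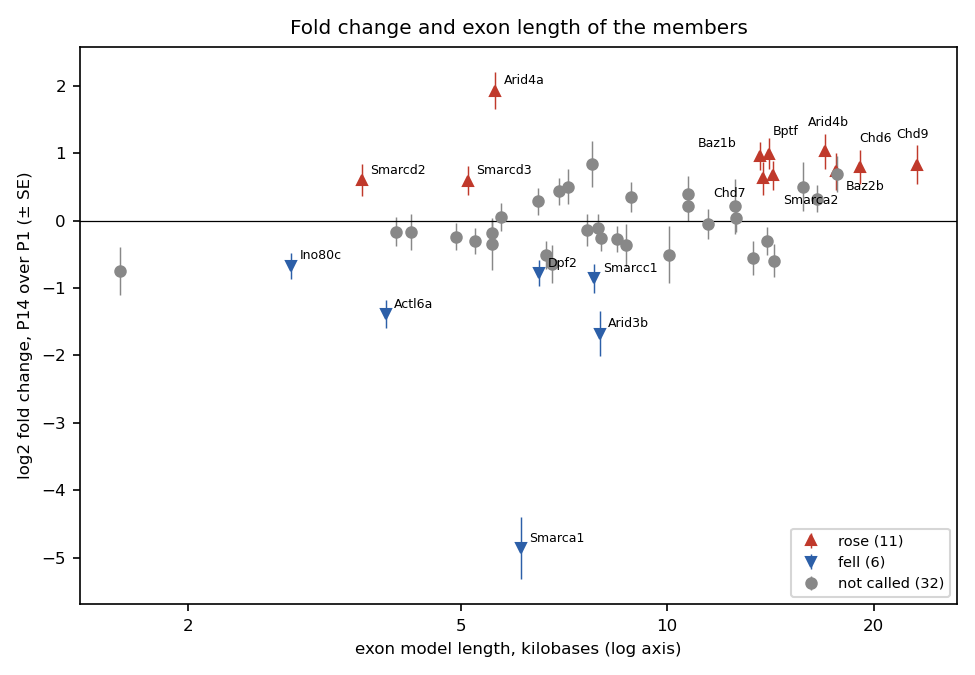
Log2 fold change (P14 over P1, bars of 1 standard error) of the 49 remodeler rows with an exon length against the length of their exon model on a log axis, with the 17 called genes named. The 8 called genes to the right of 10 kilobases all rose, and the 6 falls lie to the left of it.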

How the data were processed

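Messenger RNA of 6 libraries was analysed from whole-number read counts per gene in the table the authors deposited. Per the labels' protocols, poly(A)-selected RNA was sequenced for 36 cycles on a Genome Analyzer IIx. The submitters' processing notes name GRCm38, mm10, bedtools and edgeR 3.2.4. For aligner, counter, strand and annotation: not given in the sources used here. Columns were tied to samples by the age and replicate number in their names.

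In R 4.3.3, genes were kept with filterByExpr (minimum count 10; 14301 tested, 194 removed), scaled with TMM, and compared between ages in the robust quasi-likelihood F-test of edgeR 4.0.16, with age as the only term and Benjamini-Hochberg adjustment over all tested genes (two-sided, called under 0.05). Standard errors were taken from each coefficient and its F statistic (the coefficient over the root of F). The common biological coefficient of variation was 23.0%. Exon models, positions and shared windows came from GENCODE M21 (14316 of 14495 identifiers matched). Paralog ratios used counts plus 0.5 per kilobase of exon model. The fit was tested on simulated counts. No library was a duplicate: the chi-square statistic per degree of freedom was at least 13.0 for every pair within an age. Same-numbered libraries deviated together from their ages' means (correlations 0.295, 0.112 and 0.102, against −0.214 to 0.09 for other pairs), which met the rule for pairing (every pair over 0.1), narrowly for 2 of 3; the main fit has no block, and the blocked value is given where it changes a call or a count; the labels do not state a shared litter or day.

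Members and gene lists were chosen with earlier results of these data known. By the naming rule, full values are given for the 6 largest rises, up to 10 falls, the ATPases and the pairs whose ages do not overlap, and partner genes are named up to 3 per list and direction at a mean of at least 10 CPM. The 5 genes closest to Smarca1 in pattern are a description. Alternatives were DESeq2 1.42.0, its size factors, library totals alone, upper quartile scaling, no filter or over 5 CPM in 3 libraries, the replicate block, a spline correction (4 degrees of freedom) for GC content and length with and without that block, an adjusted p under 0.01, each library left out, and for ratios a pseudocount of 5. Markers of endothelial cells (1 of 6 tested rose, 0 fell), fibroblasts (1 of 6 rose, 1 fell), smooth muscle and pericytes (3 of 5 rose, 2 fell), lymphocytes (Ptprc alone was tested, and rose), red blood cells (3 of 3 rose), neurons and Schwann cells (1 of 2 rose), skeletal muscle (0 of 2 called) and atrium (1 of 4 fell) were also counted.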

Additional observations from a re-analysis of the deposited data

How the results depend on the processing

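The count of 12 rising and 6 falling remodeler rows was the same with DESeq2 size factors, without a filter and with DESeq2, in which Smarcd2 was replaced by Ino80d. With library totals alone 1 row rose and 20 fell, 1620 and 5592 of all tested genes did so, and 1 and 29 of the partner genes. At an adjusted p under 0.01, 5 rows rose, 2025 of all genes fell and 1 partner gene rose. With the replicate block 14 rows rose and 10 fell: no call was lost, and Ino80d, Smarca5, Chd2, Ino80, Ino80b and Smarce1 were gained. For the paralog ratios the block cannot move the mean change in this balanced design, so it says nothing of their stability, and its exact sign-flip permutation test cannot go below p = 0.25. After correction for GC content and length 14 rows fell (15 with the block) and 5 partner genes rose (6 with the block). Leaving out 1 library gave 5 to 16 rising and 5 to 7 falling rows, with 6 rises without P1 replicate 3, 5 without P14 replicate 2 and 6 without P14 replicate 3; all genes had 2387 to 3401 rises and 2269 to 3309 falls. Of the 18 called rows 10 kept their call without any single library.

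Signs turned only in rows that were not called. With totals alone the log2 fold change was −0.16 for Smarca4, −0.25 for Arid2, −0.26 for Arid5a, −0.40 for Smarcal1, −0.089 for Baz2a, −0.12 for Pbrm1, −0.15 for Chd8, −0.039 for Brd9 and −0.42 for Arid1b. With upper quartile scaling it was −0.011 for Smarcal1 and −0.017 for Arid1b. With the GC and length correction it was 0.099 for Phf10, −0.052 for Smarca4, −0.28 for Arid5a and −0.37 for Arid1b, and with the block added 0.10, −0.054, −0.20 and −0.37. Without single libraries it ranged from −0.26 to 0.019 for Smarcb1, −0.23 to 0.14 for Arid1a, −0.37 to 0.073 for Ino80e, −0.093 to 0.97 for Arid5a, −0.068 to 0.13 for Smarcal1 and −0.088 to 0.22 for Arid1b. Among the ratios, the change of Dpf3 over Phf10 was −0.28 and of Chd7 over Chd8 −0.011 with the GC and length correction, that of Chd3 over Chd4 was 0.0013 with a pseudocount of 5, and without single libraries Dpf3 over Phf10 ranged from −0.071 to 0.19, Chd3 over Chd4 from −0.048 to 0.043 and Chd6 over Chd9 from −0.15 to 0.24. Apart from fewer samples where a library was left out, the cause was not tested. Depth limits Smarca1 at P14, Arid3a, Arid3b, Smarca5, Hells and Rad54b most.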
